A study of Mus musculus with 2 samples.

Results

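The Mir99, Mir100 and Mir125 family comprises 6 microRNA (miRNA) hairpin genes of the mouse: Mir99a, Mir99b, Mir100, Mir125a, Mir125b-1 and Mir125b-2. They were chosen by gene symbol from the 1973 miRNA genes that the deposited tables list, and were grouped by the 3 genomic clusters in which they neighbour let-7 genes. All 6 were listed and all 6 had enough counts to be tested. Small RNA came from limb tissue of B6NCrl mouse embryos at 11.5 days, in 2 libraries that pooled embryos of both sexes, 109 for replicate 1 and 88 for replicate 2. The labels name no mutation or treatment and give both libraries the same donor identifier, so p-values here compare these 2 libraries and no wider population. There is 1 group and no second condition, so the family is described by its levels, by ratios within a library and by the difference between the libraries.

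A miRNA gene is transcribed into a hairpin whose 5′ or 3′ arm yields a mature miRNA, which pairs with messenger RNAs mainly through its seed, bases 2 to 8, and lowers their output. The miR-100, let-7 and miR-125 genes form an ancient cluster that many animals keep, and vertebrates carry several copies of it. miR-125 is the vertebrate relative of lin-4 of the nematode, and with let-7 it represses Lin28, a gene of early developmental timing. miR-99 and miR-100 are known to repress Mtor, a growth-signalling kinase. A read assigned to a hairpin here does not show from which arm it came.

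The mature 5′ arms are shown because their shared letters decide both the seed groups and which hairpins a read can be assigned to. Sequences are from RefSeq on GRCm38.p6, where mature entries matched all 6 genes, and the seed is in capitals. Mir99a, Mir99b and Mir100 share the seed ACCCGUA. Mir125a, Mir125b-1 and Mir125b-2 share the seed CCCUGAG, and the let-7 genes of 2 of the clusters carry GAGGUAG. The 5′ arm of Mirlet7a-2 is not printed here, because the RefSeq table has no entry for it under that gene. Its absence does not mean another seed: let-7a-5p, entered under Mirlet7a-1, carries GAGGUAG as well.
miR-99a-5p: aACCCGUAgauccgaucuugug
miR-99b-5p: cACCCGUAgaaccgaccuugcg
miR-100-5p: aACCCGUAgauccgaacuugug
miR-125a-5p: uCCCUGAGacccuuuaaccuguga
miR-125b-5p, from Mir125b-1 and Mir125b-2: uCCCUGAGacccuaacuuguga
let-7c-5p: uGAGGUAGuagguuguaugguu
let-7e-5p: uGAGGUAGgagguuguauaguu

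Within the miR-99/100 seed group the mature forms differ outside the seed. With positions counted from 1 at the 5′ end and the base of the first-named miRNA given first, miR-100-5p and miR-99a-5p differ by 1 substitution, A16U. miR-99a-5p and miR-99b-5p differ by 4, A1C, U11A, U16C and U21C. miR-125a-5p has 24 bases and miR-125b-5p has 22, and their first 13 bases are the same. The miR-125b-5p sequence is the same in Mir125b-1 and Mir125b-2, so a read of exactly this sequence fits both hairpins. Reads that fit several places have a line of their own in the files, so only reads placed at 1 hairpin are counted. The counts of both Mir125b hairpins thus lack reads of exactly this sequence and can be too low. Their 3′ arms are shown for contrast, because they do tell these hairpins apart, with 5 substitutions from Mir125b-1 to Mir125b-2: G3A, G4A, U7C, C11U and G20C.
miR-125b-1-3p: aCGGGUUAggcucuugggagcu
miR-125b-2-3p: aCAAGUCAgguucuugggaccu

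The hairpins of the most alike pair with distinct mature forms, Mir99a and Mir100, show where else a read can separate them. Here capitals mark the 5′ and the 3′ mature arms. The longest stretch that both hairpins hold is 16 bases, shorter than a mature miRNA.
Mir99a hairpin: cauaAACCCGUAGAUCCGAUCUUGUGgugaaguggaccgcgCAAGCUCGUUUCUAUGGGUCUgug
Mir100 hairpin: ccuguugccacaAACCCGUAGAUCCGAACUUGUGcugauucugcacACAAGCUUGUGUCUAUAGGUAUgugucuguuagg

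Each cluster has the same order on the plus strand of mm10: a miR-99/100 gene, a let-7 gene, then a miR-125 gene. On chromosome 9, Mir100 lies from 41531425 to 41531504, Mirlet7a-2 from 41536716 to 41536811 and Mir125b-1 from 41581926 to 41582002. All these lie in an intron of the noncoding gene 3110039I08Rik on the same strand. Mir125b-1 also overlaps an exon of Gm28119, and Mir100 overlaps an exon of Gm48742 on the other strand. On chromosome 16, Mir99a lies from 77598936 to 77599000, Mirlet7c-1 from 77599657 to 77599750 and Mir125b-2 from 77646273 to 77646343. The host there is Mir99ahg, a noncoding transcript in whose introns all 3 hairpins lie. Mir125b-2 also overlaps an exon of C130023A14Rik. On chromosome 17, Mir99b lies from 17830188 to 17830257, Mirlet7e from 17830352 to 17830444 and Mir125a from 17830812 to 17830879. Mir99b and Mirlet7e are in introns of the protein-coding gene Spaca6, and Mir125a overlaps an annotated exon of it. The chromosome 17 cluster spans 692 bases, against 50578 on chromosome 9 and 47408 on chromosome 16, where the miR-125 gene stands 45114 and 46522 bases beyond the let-7 gene.

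Values are raw read counts for each hairpin on its own strand (sense counts). Totals over all miRNA genes were 2953085 in replicate 1 and 3459176 in replicate 2, and levels are given as CPM (each count scaled to a common library total) or as a percent of them. Reads that fit several places made up 24.7% and 23.4% of all reads in the files and are in no gene's count. Of the fixed marker lists for limb, all 6 Hox cluster miRNAs and all 6 mesenchymal miRNAs reached 10 CPM in both libraries, led by Mir196b at 70319 CPM and Mir214 at 39072 CPM. Of other tissues, the endothelial marker Mir126a stood at 24194 CPM, and all 7 epithelial markers reached 10 CPM, led by Mir205 at 5522 CPM. All 4 listed blood markers reached it, led by Mir155 at 413 CPM, and the liver marker Mir122 stood at 18.2 CPM. Of 5 listed muscle markers 2 reached 10 CPM, led by Mir206 at 540.2 CPM, and Mir1a-1, Mir133a-1 and Mir133a-2 were at 0. None of the 5 listed neuronal markers reached it: Mir9-3 led at 2.17 CPM and the other 4 were at 0. Mir1, Mir133, Mir9 and Mir124 are each encoded by several hairpins with the same or nearly the same mature miRNA, so a 0 there does not bound the mature miRNA. The epithelial list held 1.32% of counts in replicate 1 and 1.53% in replicate 2, and the mesenchymal list 5.81% and 5.40%. The part of these cell types in the family's levels was not tested, and in whole tissue a change in the number of cells and a change in RNA per cell cannot be told apart.

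The family held 7.12% of all sense counts in replicate 1 and 7.49% in replicate 2, or 7.31% ± 0.26 (SD, n = 2). As assigned to single hairpins, most of it came from the miR-99/100 seed genes, at 6.41% ± 0.26, while the miR-125 genes held 0.891% ± 0.007 of the counts. Reads of exactly miR-125b-5p are missing from the family and miR-125 shares, and how many is not recorded. The order of the seed groups therefore holds for assigned counts only. All 6 members reached 10 CPM in both libraries, as did 295 of the 1973 listed genes. All 6 also lay above the median detected gene, which stood at 262 CPM, although Mir125b-2 did so by 1.58-fold only.

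The level of Mir99b was 28591 CPM in replicate 1 and 28782 in replicate 2. Mir99a had 26017 and 28920 CPM. These were the 8th and the 9th most abundant genes of the limb by mean level, well below Mir335, the most abundant gene of the series, at 11.2% of counts. Their order was not the same in both libraries: Mir99b exceeded Mir99a by 0.14 on the log2 scale in replicate 1 and was 0.01 below it in replicate 2. The Wilson 95% intervals of their shares were 2.84 to 2.88% against 2.58 to 2.62% in replicate 1. In replicate 2 they overlapped, at 2.86 to 2.90% against 2.87 to 2.91%. The mean log2 ratio of Mir99b to Mir99a, 0.06 ± 0.10 (SD, n = 2), was smaller than its spread, so these members could not be ordered.

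Mir100 was measured at 7673 CPM in replicate 1 and 8298 in replicate 2, and ranked 27th by mean level. It lay below Mir99a in both libraries, with Mir99a higher by 1.78 ± 0.03 on the log2 scale (SD, n = 2), or 3.39-fold and 3.49-fold. This ratio compares miRNAs whose 5′ arms differ at base 16 alone. Of the counts of the miR-99/100 seed genes, Mir100 held 12.3% and 12.6%, Mir99a 41.8% and 43.8%, and Mir99b 45.9% and 43.6%.

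Mir125a, the chromosome 17 member of the lin-4 relatives, led the miR-125 genes with 6444 CPM in replicate 1 and 6324 in replicate 2. Mir125b-1 had 2125 and 2101 CPM, and Mir125b-2 had 390.4 and 437.7 CPM. The order was the same in both libraries, and no Wilson intervals of these 3 shares overlapped within a library. Mir125a held 71.9% and 71.4% of the counts of the miR-125 genes, Mir125b-1 23.7% in each library, and Mir125b-2 4.36% and 4.94%. Mir125b-1 exceeded Mir125b-2 by 2.35 ± 0.13 on the log2 scale, although both make the same miR-125b-5p. That ratio compares only reads that the authors' counting could place at 1 hairpin, so reads of exactly miR-125b-5p are not in it. The multimapping reads that belong to either are not recorded by gene. For the same reason the total of miR-125b set against miR-125a is a lower limit.

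**Figure D1:**
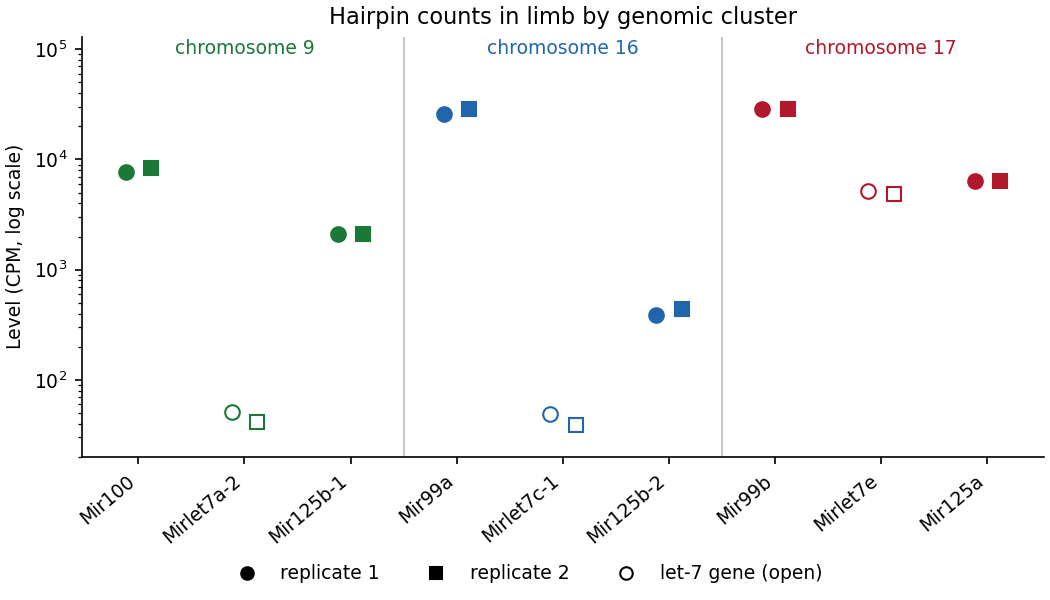
Level of each hairpin in CPM on a log axis, by cluster; circles are replicate 1, squares replicate 2, and open symbols the let-7 gene of the cluster. In each cluster the miR-99/100 gene is highest by assigned counts, which leave out reads that fit several hairpins. Mirlet7a-2 and Mirlet7c-1 lie near 40 to 50 CPM, while the reads at Mirlet7e lie near 5000 CPM.

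Of the neighbours in the full order, Mir100 stood above Mir125a in both libraries, at 0.767% and 0.830% of counts against 0.644% and 0.632%. The gap between their means was larger than the spread of either, with an SD of 0.044 for Mir100 and 0.009 for Mir125a. For the counts as assigned, Mir125a stood above Mir125b-1, and Mir125b-1 above Mir125b-2, in the same way. These lower steps need not hold for the genes themselves, because reads that fit both Mir125b hairpins are missing from the counts of both. No test was made of these ratios, because the smallest p of an exact sign-flip test on 2 libraries is 0.5. Counts were not divided by hairpin length, because a mature miRNA, not the hairpin, is sequenced. Divided by it, Mir99a came out above Mir99b, with a log2 ratio of Mir99b to Mir99a of -0.04.

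**Figure D2:**
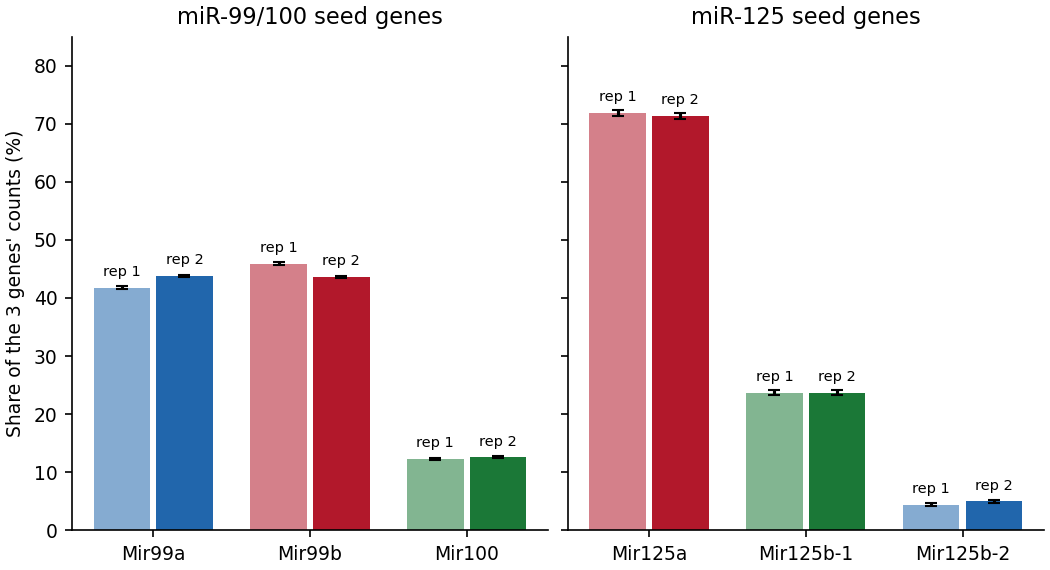
Share of counts, in percent, that each gene holds among the 3 members of its seed group; pale bars are replicate 1, full bars replicate 2, error bars are Wilson 95% intervals, and colours mark the chromosome (9 green, 16 blue, 17 red). Mir99a and Mir99b change order between the libraries, whereas Mir125a holds over 70% of the assigned counts of the miR-125 members in both. That share can be too high, because miR-125b reads that fit both hairpins are missing. Mir351, which has the same seed, is not included.

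The seed ACCCGUA occurs in no mature entry of the RefSeq table outside the family, so these 3 genes are the whole miR-99/100 seed group there. The seed CCCUGAG occurs in 6 genes, the 3 miR-125 members and Mir351, Mir6367 and Mir6394. Mir351, an X-linked gene of the Mir322-503 cluster, is shown because its assigned counts in that seed were next to those of Mir125a.
miR-351-5p: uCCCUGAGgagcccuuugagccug

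Mir351 stood at 4584 CPM in replicate 1 and 5416 in replicate 2, between Mir125a and Mir125b-1. With it, genes of the CCCUGAG seed held 1.39% ± 0.05 of the counts (SD, n = 2), and Mir351 made up 33.8% and 37.9% of that. Those shares of Mir351 are upper limits, because miR-125b reads that fit both hairpins are missing. Mir6367 and Mir6394 had 0 counts in both libraries, which allows up to 1.02 CPM in replicate 1 and 0.867 CPM in replicate 2 (3 counts of the total, counting error only).

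Within every cluster the miR-99/100 gene had more counts than the miR-125 gene, but by very different factors. On chromosome 9, Mir100 exceeded Mir125b-1 by 3.61-fold in replicate 1 and 3.95-fold in replicate 2. On chromosome 17, Mir99b exceeded Mir125a by 4.44-fold and 4.55-fold. On chromosome 16, Mir99a exceeded Mir125b-2 by 66.6-fold and 66.1-fold. In log2 units these were 1.92 ± 0.09, 2.17 ± 0.03 and 6.05 ± 0.01 (SD, n = 2). The counting error of the chromosome 16 ratio, 0.043 in replicate 1 and 0.037 in replicate 2, was larger than that SD. The chromosome 9 and 16 factors can be too high, since the miR-125b reads that fit both hairpins are missing from them. No other gene of the table has the mature 5′ forms of the chromosome 17 genes. How many reads are missing is not recorded, so the contrast between the clusters holds for the counts as assigned.

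**Figure D3:**
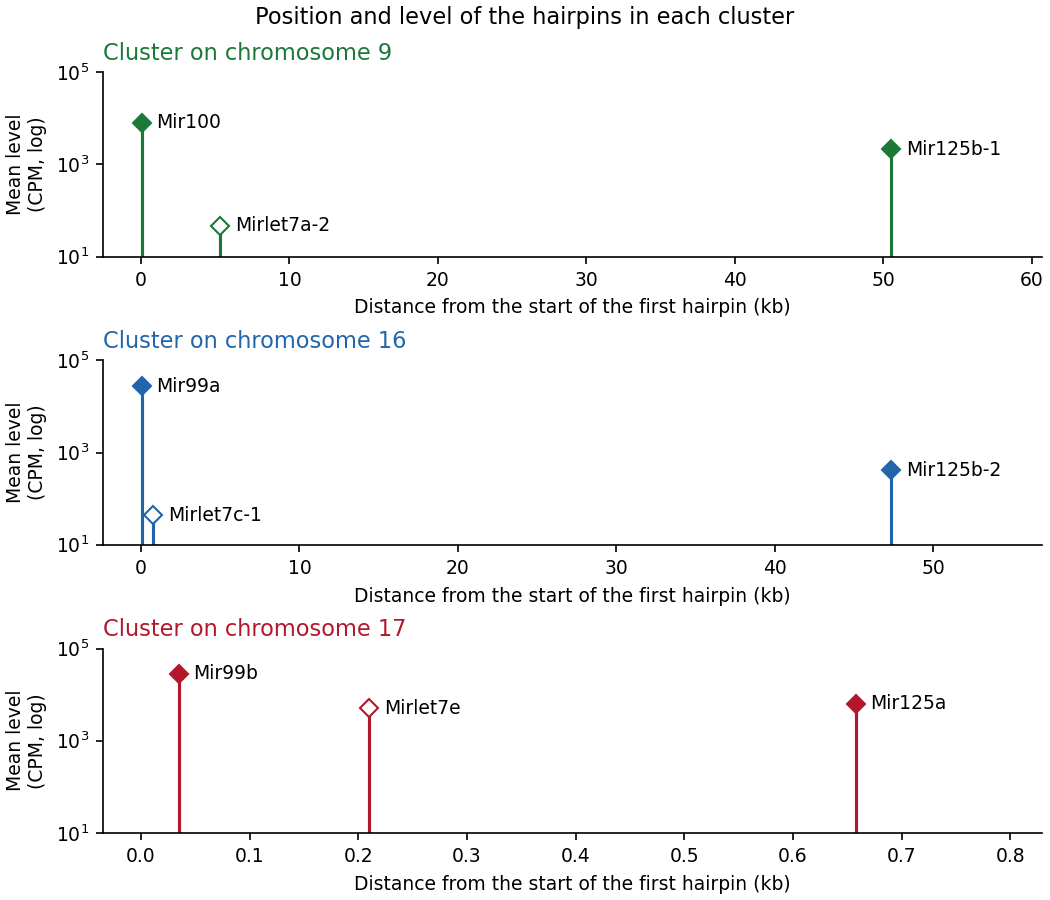
Mean level of each hairpin over both libraries (CPM, log axis, diamonds, open for let-7 genes) against distance in kb from the start of the first hairpin, 1 panel per cluster, each with its own distance axis; stems only mark the position. The miR-125 gene lies about 50 kb away on chromosomes 9 and 16 and under 1 kb away on chromosome 17. By assigned counts it is below the miR-99/100 gene in every panel, although miR-125b reads that fit both hairpins are missing.

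As a sum, the 2 members on chromosome 17 held 3.51% ± 0.005 of the counts, those on chromosome 16 held 2.79% ± 0.21 and those on chromosome 9 held 1.01% ± 0.04 (SD, n = 2). Both libraries gave this order of the clusters for the counts as assigned. The chromosome 9 and 16 sums can be too low, because miR-125b reads that fit both hairpins are missing from them. Their place below chromosome 17 therefore holds for assigned counts only. The SD on chromosome 17 is below the counting error, with Wilson 95% intervals of 3.48 to 3.52% in replicate 1 and 3.49 to 3.53% in replicate 2. As assigned, the chromosome 16 share was almost all Mir99a, at 98.5% of it in each library. Mir100 made up 78.3% and 79.8% of the chromosome 9 share. Both parts can be too high, because the missing miR-125b reads would lower them.

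On chromosomes 9 and 16 the let-7 gene between the members stood far lower than either of them. The let-7 miRNAs are a large family, several of whose mature forms are known to come from more than a single hairpin. Mirlet7a-2 had 150 counts in replicate 1 and 143 in replicate 2, or 50.8 and 41.3 CPM. Mirlet7c-1 had 144 and 135 counts, or 48.8 and 39.0 CPM, and its let-7c-5p is also the mature form of Mirlet7c-2. Mir99a therefore exceeded Mirlet7c-1, which lies 656 bases from it, by 534-fold and 741-fold, and Mir100 exceeded Mirlet7a-2 by 151-fold and 201-fold. These factors hold for the counts as assigned and can be too high, because let-7 reads that fit several hairpins are left out.

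Mirlet7e, between Mir99b and Mir125a, was not among the listed genes. The files list Gm25927, which overlaps it on the opposite strand and had 0 sense counts. On the strand of Mirlet7e, the opposite one for Gm25927, there were 15171 counts in replicate 1 and 16987 in replicate 2, the equivalent of 5137 and 4911 CPM. Relative to these reads, Mir99b was higher by 5.57-fold and 5.86-fold, and Mir125a by 1.25-fold and 1.29-fold. The member genes themselves had 0 opposite-strand counts in both libraries, except for 1 read at Mir99a in replicate 1.

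The libraries were compared gene by gene to see which members repeat within counting error. A two-sided exact binomial test on library sizes scaled by edgeR's TMM, with Benjamini-Hochberg adjustment over 422 genes, called 4 of the 6 members, 3 higher and 1 lower in replicate 2. The same test called 21.3% of all tested genes, 9.48% higher and 11.8% lower. Of genes with a mean of 100 CPM or more, where all 6 members lie, it called 41.3%, with 21.4% lower. All differences of the members were small, with a median size of 1.05-fold, against 1.06-fold for tested genes at 100 CPM or more. Their median log2 ratio was 0.05, against 0.01 for those genes.

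Mir99a, with 76831 counts in replicate 1 and 100040 in replicate 2, was higher in replicate 2 by 0.14 on the log2 scale (counting error 0.01, adjusted p = 3.84e-89, exact binomial test). Its call also passed both forms of the test that allow a common spread beyond counting, at adjusted p = 1.29e-33 with the overdispersion of the median gene and 0.000291 with that of the mean gene. These forms called 11.4% and 2.84% of all tested genes, and 2 and 1 of the members, all 6 of which lie at 100 CPM or more. They apply 1 factor to all genes, so a gene with many counts can pass at a small difference. Mir99a differed by 1.10-fold, against a median size of 1.10-fold for all tested genes and 1.06-fold at 100 CPM or more. Whether Mir99a differs beyond the spread usual for its level was not tested. Mir125b-2, in the same cluster, had 1153 and 1514 counts and a log2 ratio of 0.15 with a counting error of 0.06 (adjusted p = 0.0355, exact binomial test). That call was lost with overdispersion, at adjusted p = 0.470 from the median gene and 1.00 from the mean. The ratio of Mir99a to Mir125b-2 moved by -0.01 between libraries, with a 95% interval for counting error of -0.12 to 0.10.

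On chromosome 9, Mir100 had 22659 and 28704 counts and was higher in replicate 2 by 0.10 on the log2 scale (counting error 0.01, adjusted p = 8.90e-14, exact binomial test). It passed with the overdispersion of the median gene, at adjusted p = 2.53e-05, and not with that of the mean gene, at 1.00. Mir125b-1 had 6274 and 7268 counts, a log2 ratio of -0.03 with a counting error of 0.02, and did not pass (adjusted p = 0.527, exact binomial test). Their ratio moved by 0.13 between the libraries, with a 95% interval for counting error of 0.07 to 0.18. That interval leaves out spread beyond counting, so whether these neighbours vary together was not tested.

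On chromosome 17, Mir99b had 84432 and 99562 counts, a log2 ratio of -0.0032 and a counting error of 0.0067 (adjusted p = 0.861, exact binomial test). Its sign changed with the scaling, to 0.0096 with total counts. Mir125a had 19030 and 21875 counts, and was called lower in replicate 2 by a log2 ratio of -0.04 with a counting error of 0.01 (adjusted p = 0.0272, exact binomial test). That call was lost with total counts as the scaling (adjusted p = 0.194), and with overdispersion (adjusted p = 0.437 and 1.00). As sums, the members of the cluster on chromosome 16 had a log2 ratio of 0.14, those on chromosome 9 of 0.07 and those on chromosome 17 of -0.01.

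**Figure D4:**
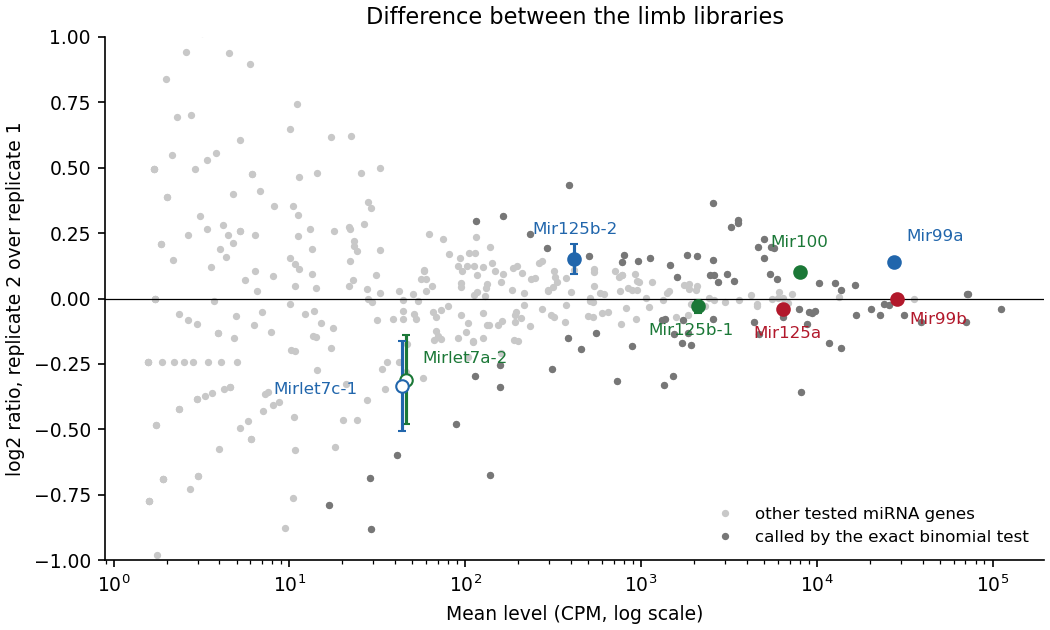
Log2 ratio of replicate 2 over replicate 1 against mean level (CPM, log axis) for the tested miRNA genes, of which 23 lie outside the axis range; dark grey points were called by the exact binomial test, coloured points are the family (9 green, 16 blue, 17 red), open points the cluster let-7 genes, and error bars the counting error. Mir99a, Mir100 and Mir125b-2 lie above 0, and both let-7 genes lie below it with wide error bars.

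Both listed let-7 genes of the clusters had negative log2 ratios. Mirlet7a-2 had a log2 ratio of -0.31 with a counting error of 0.17 and did not pass (adjusted p = 0.224, exact binomial test), and Mirlet7c-1 had -0.33 with an error of 0.17 (adjusted p = 0.187, exact binomial test). The ratio of Mir99a to Mirlet7c-1 moved by 0.47 between the libraries, with a 95% interval for counting error of 0.13 to 0.81. The other let-7 genes, which lie outside these clusters, had a median log2 ratio of -0.32 over 8 tested genes. Of these, 6 were called lower and 0 higher, against a share called lower of 11.8% of all tested genes. At a mean of 100 CPM or more, 5 of 5 of these let-7 genes were called lower, against 21.4% of all tested genes at that level. With overdispersion, 4 of the 8 let-7 genes were called lower from the median gene and 2 from the mean gene. The same forms called 27 and 7 of all 422 tested genes lower. At Mirlet7e, the ratio of Mir99b to its reads moved by 0.07, with an interval of 0.04 to 0.11.

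**Figure D5:**
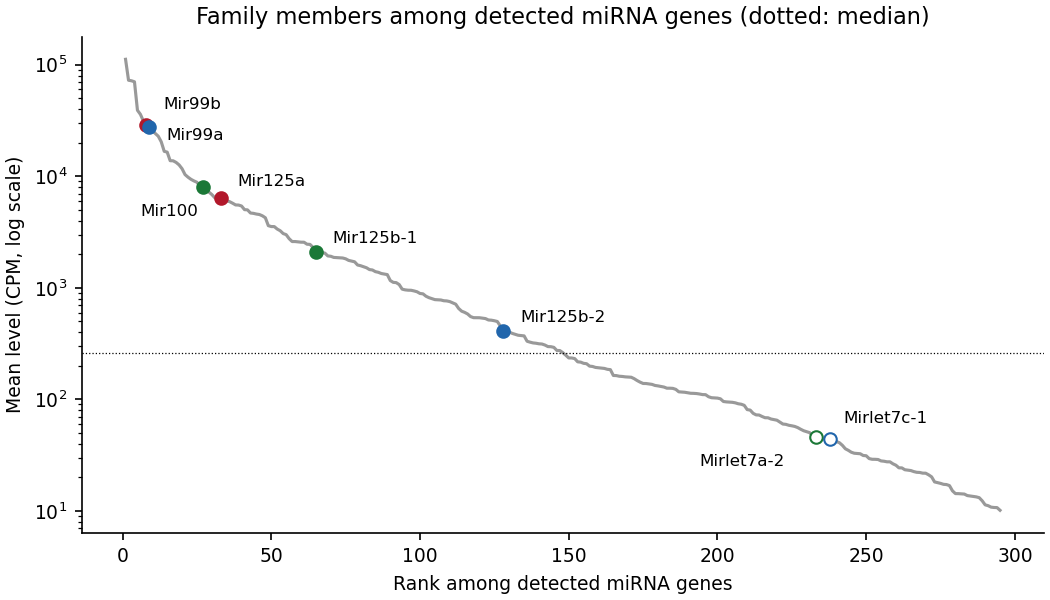
Mean level (CPM, log axis) of the detected miRNA genes in order of rank, with the family and the listed let-7 genes of its clusters marked (9 green, 16 blue, 17 red, let-7 open). Mir99b and Mir99a lie at ranks 8 and 9 and Mir125b-2 at rank 128, above the dotted median, and the let-7 genes lie below it. Ranks are by assigned counts, which leave out reads that fit several hairpins, so those of the Mir125b and let-7 genes can be too low.

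The genes most like each member were sought by the summed absolute difference in log2(CPM + 1) over both libraries. Mir99a was closest to Mir99b, and Mir99b to Mir99a, at 0.14, and the next were Mir20a for Mir99a at 0.18 and Mir130a for Mir99b at 0.25. Mir100 was closest to Mir296 at 0.14 and to Mir181d at 0.29. Mir125a was closest to Mir92-1 at 0.03 and Mir181c at 0.04. Mir125b-1 was closest to Mir188 at 0.08 and Mir15b at 0.09, and Mir125b-2 to Mir155 at 0.04 and Mir1306 at 0.13. With 2 libraries of 1 tissue, this likeness is one of assigned level and of little else. For both Mir125b genes it rests on counts that leave out reads of exactly miR-125b-5p.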

How the data were processed

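The deposited values are raw counts of reads per miRNA gene, in 1 file per library, on assembly mm10 with GENCODE annotation M4, per the submitters' notes deposited with the files. For the aligner and the counter, names and settings were not given in the sources used here. Of 3 count columns, the first is the sum of the others; the second held nearly all counts and was taken as sense. The 4 lines for reads outside genes stayed out of totals and tests. Symbols and coordinates were taken from GENCODE M21, also mm10 (1894 of 1973 identifiers matched), and sequences from the RefSeq table.

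CPM used all sense counts. Genes with 10 or more counts over both libraries were tested between the libraries by a two-sided exact binomial test on TMM-scaled sizes. Calls were made at an adjusted p of 0.05. The overdispersed forms use a normal approximation and divide the squared deviation of each gene by a common factor. That factor is the mean squared deviation over genes, or the median relative to its value under counting error alone. Log2 ratios used a prior count of 0.5. The test was tested on simulated data. Those data were drawn with counting error alone, so they do not show how the test behaves with spread beyond counting. Wilson 95% intervals and the limit of 3 counts express counting error alone, since PCR copies of a molecule are counted as separate reads. edgeR 4.0.16 and DESeq2 1.42.0 in R 4.3.3 gave the scaling, Python 3.11.15 with scipy 1.17.1 the rest.

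Members and lists were chosen with earlier results of these data known. Named genes are the 6 members, their clusters' let-7 genes, the 2 genes most like each member, the most abundant gene and the leading gene of each marker list; Mir351, Mir6367 and Mir6394 were named for their seed after the sequences were seen. Alternatives covered the denominator, count column, scaling, filter, prior count, test, hairpin length, detection level and each library alone.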

Additional observations from a re-analysis of the deposited data

Results flagged for a closer look

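Reads on the strand opposite to the listed gene Gm25927 lie outside the sense counts that gave the levels and tests. There were 15171 of them in replicate 1 and 16987 in replicate 2, against the 3 counts that a count of 0 allows, and they lie on the strand of Mirlet7e, between Mir99b and Mir125a.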

How the results depend on the processing

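The family share of 7.31% was 3.32% with all reads of the files as denominator and 8.23% without Mir335 in it. In that order, the miR-99/100 seed genes gave 2.92% and 7.22%, the miR-125 genes 0.405% and 1.00%, and the clusters 0.460% and 1.14% on chromosome 9, 1.27% and 3.14% on chromosome 16, and 1.59% and 3.95% on chromosome 17. With both strands counted, the miR-125 genes held 0.871% and the chromosome 17 members 3.43%, or 4.01% with the reads at Mirlet7e added to the sense counts. Each library alone gave shares within 1 SD, as it must with 2 libraries. The log2 ratio of Mir99b to Mir99a ranged from -0.0069 without replicate 1 to 0.14 without replicate 2, and was -0.042 per hairpin length. Per length, Mir99a over Mir100 was 2.08, Mir99a over Mir125b-2 6.18 and Mir99b over Mir125a 2.13. Calls were 40 higher and 50 lower, but 21 and 27 with the overdispersion of the median gene and 5 and 7 with that of the mean gene. Of the members, 4 were called, 3 with total counts, without the filter or with both strands, when the call of Mir125a was lost, and 2 and 1 with overdispersion. The log2 ratio of Mir99b, which was not called, was 0.0096 with total counts, 0.0041 without the filter and 0.0033 with both strands. All 6 members stayed detected at 1 and at 100 CPM. No paired analysis was possible because there is 1 group.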
